A study of Mus musculus with 9 samples.

Results

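Heat shock proteins and J-domain co-chaperones were taken as every transcript cluster whose gene symbol begins with Hspa, Hspb, Hspd, Hspe, Hsph, Hsp90, Dnaja, Dnajb or Dnajc, which gave 74 of the 22206 clusters in the deposited signal table. A transcript cluster is the set of probes that an array holds for 1 gene. The RNA came from hippocampi of 9 male mice of the outbred ICR stock, aged 8 weeks, each on 1 Clariom S array. The mice inhaled for 7 days the vehicle (1% Tween 80), 1% LA or 10% LA, with 3 mice in each of the 3 groups. LA is linalyl acetate, an ester that gives lavender oil much of its scent. The labels do not say whether the LA mice also received Tween 80, and all groups underwent the tail suspension test, a handling stress in which immobility is scored, after 30 min of inhalation. For 5 mice (all 3 given vehicle, and replicates 1 and 2 at 1% LA) the free-text description conflicts with this: it tells of saline or oleacein by mouth, then saline or LPS by injection. The design text names human cells. Groups here follow the titles, whose treatments the source names repeat, and the conflict was not tested.

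The values are log2 signals, so a difference of 1 is a doubling. By family, the array held 11 HSP70, 3 HSP110, 3 HSP90, 7 small HSP, 4 DNAJA, 13 DNAJB and 28 DNAJC clusters, 2 for the mitochondrial chaperonin and 3 others (Hspbp1, Hspbap1 and Hspb11). Of the 74 clusters, 60 passed a filter on low signals (a mean over the 9 arrays above 5.98, which kept 13323 clusters of all genes). The 14 below it were Hspa1l, Hspa12b, Hspb1, Hspb3, Hspb7, Hspb9, Dnajb3, Dnajb7, Dnajb8, Dnajb13, Dnajc5b, Dnajc5g, Dnajc22 and Dnajc25, with means between 3.47 and 5.87. Array medians lay between 6.84 and 6.88. The 7 neuronal markers averaged 15.11 to 15.43 per array and the 6 markers of hippocampal neurons 10.66 to 11.84, so the labelled tissue carried its markers. The third vehicle array differed between the signal table and the deposited series matrix (r = 0.9811, with 1778 clusters over 1 log2 unit apart), whereas each of the other 8 arrays had r of at least 0.9993. Results are therefore given with the signal table and, beside it, with the series matrix.

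Markers of the choroid plexus, the epithelium of the ventricles that adjoins the hippocampus, differed between the mice. Their mean signal over 12 genes was 7.06, 10.15 and 7.24 in the vehicle arrays, 12.05, 11.04 and 10.88 at 1% LA, and 11.57, 8.49 and 10.07 at 10% LA. The third vehicle array stood at 11.61 by the series matrix. All 12 had an unadjusted p under 0.05 at 1% LA against vehicle, with a median difference of 3.36 (1.84 in the series matrix), and 6 of 12 at 10% LA, with a median of 1.83 (0.37 in the series matrix). At 10% LA against 1% LA all 12 were lower in sign, with a median of -1.40 and 1 at an unadjusted p under 0.05. The lowest single value of the list was 4.02, below the filter. Of 6 markers of meninges, 4 were higher at an unadjusted p under 0.05 at 1% LA (median 1.10) and 0 at 10% LA. Of 7 microglial markers 2 were higher at 1% LA (median 0.46) and 3 at 10% LA (median 0.61), and of 7 astrocyte markers 1 at 1% LA (median 0.13) and 3 at 10% LA (median 0.26). Of 7 myelin markers 0 were higher at 1% LA and 2 at 10% LA (median 0.53). By the same call 6.33% of all clusters were higher at 1% LA and 6.79% at 10% LA. In the series matrix the medians at 1% and 10% LA were 0.46 and -0.0074 for meninges and 0.17 and 0.44 for microglia. They were 0.05 and 0.21 for astrocytes and -0.31 and 0.11 for myelin. The part of these cells in the chaperone values at either dose, family and compartment values included, was not tested, and in tissue RNA fewer cells of a type cannot be told apart from less RNA per cell.

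Heat shock proteins keep other proteins folded. HSP70 proteins bind unfolded stretches in a cycle of ATP use that J-domain proteins (DNAJA, DNAJB and DNAJC) start and HSP110 proteins reset. HSP90 finishes the folding of kinases and hormone receptors, small HSPs hold unfolded proteins without ATP, and the HSP60 and HSP10 chaperonin folds proteins inside mitochondria. Heat shock factor 1 switches on the cytosolic members through heat shock elements in their promoters, and the unfolded protein response switches on those of the endoplasmic reticulum (ER). In neurons, J-domain proteins also serve synaptic vesicles and clathrin coats.

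The promoters of the genes below are shown because the results are ordered by these 2 routes of induction. They come from RefSeq (GRCm38.p6), which gave a window of 250 bases before to 50 after the start for 60 of the 74 member genes. The shares below count genes with a match in any of their windows. The ER stress element, searched as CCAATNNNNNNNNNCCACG on both strands, was held by 3 of the 60 member genes (5.0%), against 37 of 27025 genes in all (0.137%). The 3 were Hspa5 (chr2:34772001-34772067, plus strand), Dnajc3 (chr14:118937803-118937869, plus strand) and Hsp90b1 (chr10:86705509-86705680, minus strand), which holds it once in each direction. Capitals mark the element.
Hspa5: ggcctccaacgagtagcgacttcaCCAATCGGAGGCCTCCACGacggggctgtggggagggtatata
Dnajc3: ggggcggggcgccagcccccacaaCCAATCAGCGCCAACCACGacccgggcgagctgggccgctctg
Hsp90b1: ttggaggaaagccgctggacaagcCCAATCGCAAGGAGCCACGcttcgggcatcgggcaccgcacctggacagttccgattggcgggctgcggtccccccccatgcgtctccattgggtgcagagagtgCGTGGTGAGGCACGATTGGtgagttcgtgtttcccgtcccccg

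The heat shock element was searched as 3 units, GAANNTTCNNGAA on both strands, and as 2 units, GAANNTTC or TTCNNGAA, which every match of 3 units also contains. Matches of 3 units were held by 4 of 60 member genes (6.67%), Dnajb6, Hspd1, Hspe1 and Hsph1, against 179 of 27025 genes in all (0.662%). Matches of 2 units were held by 16 of 60 (26.7%) against 4587 of 27025 (17.0%). Dnajb6 (chr5:29735828-29735888, plus strand) holds 1 match of 3 units. Hspd1 and Hspe1 are transcribed away from each other out of a shared stretch (chr1:55088035-55088100, minus strand, for Hspd1 and the plus strand for Hspe1), which holds 2 overlapping matches. The 2 genes for inducible HSP70, Hspa1a (chr17:34972229-34972284, minus strand) and Hspa1b (chr17:34959311-34959366, minus strand), had the same letters in the stretch shown, with a 2-unit match. The stretch of Hsph1 (chr5:149636338-149636393, minus strand) shows a 2-unit match before the start. Capitals mark the matches, which describe the letters and are not measured binding sites.
Dnajb6: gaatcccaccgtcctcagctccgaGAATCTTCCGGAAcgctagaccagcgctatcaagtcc
Hspd1: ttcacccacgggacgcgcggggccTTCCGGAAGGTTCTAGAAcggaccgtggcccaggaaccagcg
Hspe1: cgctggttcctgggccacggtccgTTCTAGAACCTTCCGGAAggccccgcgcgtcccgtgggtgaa
Hspa1a: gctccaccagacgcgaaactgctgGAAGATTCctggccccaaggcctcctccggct
Hspa1b: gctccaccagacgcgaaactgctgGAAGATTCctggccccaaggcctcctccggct
Hsph1: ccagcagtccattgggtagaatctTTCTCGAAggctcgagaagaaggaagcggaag

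The first comparison asked what 7 days of 1% LA did to these chaperones. In the signal table Dnajc10 and Dnajc3, both partners of the ER chaperone BiP, stood above vehicle in all 3 mice. So did BiP itself (Hspa5) and the ER form of HSP90 (Hsp90b1). Of these genes only Dnajc10 stayed separate in the series matrix. Separate and higher values were seen in 8.33% of members in the signal table, against 7.01% of all clusters. Hspb11 stood below vehicle in all 3 mice in the signal table, but not in the series matrix. Differences were of at most 0.59 log2 in size upward and 0.56 downward, and no member passed limma's test.

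In that test 0 of 60 members had an adjusted p under 0.05 at 1% LA, as had 0.0% of all 13323 clusters, and the smallest adjusted p of a member was 0.356. At an unadjusted p under 0.05, 3 members were higher (Dnajc10, Dnajc14 and Dnajc3), where 6.33% of all clusters were, and 1 was lower (Hspb11), where 5.6% of all clusters were. Values of LA and vehicle mice were fully separate for 5 higher members (Dnajc10, Dnajc3, Hsp90b1, Hspa5 and Hspb8), against 7.01% of all clusters, and for 4 lower ones (Dnajb14, Dnajb5, Hspb11 and Hsph1), against 7.43%. With a fold over 2 added to the unadjusted p, 0 members were called, against 1.4% of all clusters. The median difference of the 60 was -0.01, against -0.0033 over all clusters, with 27 positive and 33 negative. Of the members 55.0% were below 0, against 50.4% of all clusters.

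Among the 7 unfolded protein response targets, 5 had positive differences at 1% LA, and 2 of those had an unadjusted p under 0.05. Dnajc10, an ER reductase that opens disulfide bonds for degradation, had log2 signals of 12.08, 12.29 and 12.06 at 1% LA, against 11.82, 11.50 and 11.34 in vehicle. The groups did not overlap. The difference was 0.59 (SE 0.18, limma's adjusted p = 0.356), a ratio of 1.51, and 0.42 with the series matrix. There the third vehicle array read 12.02, just under the lowest 1% LA value of 12.08. Dnajc3, which restrains the stress kinase PERK, had 11.17, 11.03 and 11.30 at 1% LA and 10.50, 10.99 and 10.63 in vehicle. The lowest treated value, 11.03, stood narrowly above the highest vehicle value, 10.99, and the difference was 0.46 (SE 0.19, adjusted p = 0.394).

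For Dnajc3 the third vehicle array read 11.17 in the series matrix, within the range of the 1% LA arrays. The difference was then 0.17 with an unadjusted p of 0.419, so the call at an unadjusted p under 0.05 rested on which table was read. Hspa5 had 15.87, 15.92 and 15.74 at 1% LA and 15.62, 15.56 and 15.40 in vehicle, a difference of 0.32 (SE 0.25), and 0.10 with the series matrix, in which the third vehicle array read 16.11. Hsp90b1 had 15.29, 15.36 and 15.31 at 1% LA and 14.98, 15.08 and 14.83 in vehicle. Its difference was 0.36 (SE 0.19), and 0.18 with the series matrix, where the third vehicle array read 15.31. Both genes were above vehicle in every treated mouse in the signal table and overlapped with vehicle in the series matrix.

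The other 3 targets lay nearer to 0. Dnajb11, which hands unfolded proteins to BiP, differed by 0.12 (SE 0.28), Hspa13, an ER relative of HSP70, by -0.073 (SE 0.23), and Dnajb9, which returns the stress sensor IRE1 to rest, by -0.17 (SE 0.19). Over the 7 targets the median was 0.32, and 0.17 with the series matrix. The mean signal of the list was 12.40, 12.42 and 12.33 at 1% LA, against 11.98, 12.33 and 12.15 in vehicle, where the third array read 12.40 in the series matrix. The treated mice were close to each other and the vehicle mice spread wider, with SDs of 0.048 and 0.18 (n = 3 each). Choroid plexus markers also averaged highest at 1% LA, at 11.32, against 8.15 in vehicle.

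Heat shock factor targets showed no shared direction at 1% LA. Of the 12 kept, 8 had positive and 4 negative differences, with a median of 0.032 and no member at an unadjusted p under 0.05. Dnajb1, the main stress-induced partner of HSP70, had 10.46, 11.16 and 10.45 at 1% LA and 10.45, 9.97 and 10.51 in vehicle. The treated mouse at 11.16 and the vehicle mouse at 9.97 carried the difference of 0.38 (SE 0.23). Hspa1a differed by 0.12 (SE 0.17) and Hsp90aa1, the inducible cytosolic HSP90, by 0.33 (SE 0.29, and 0.076 with the series matrix). Hsph1, an HSP110 that releases nucleotide from HSP70, had 14.05, 13.92 and 13.89 at 1% LA, against 14.22, 14.14 and 14.33 in vehicle. The groups did not overlap, and the difference was -0.28 (SE 0.16, adjusted p = 0.487).

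Hspb11 bears the name of a small HSP but encodes a subunit of the transport machinery of cilia. It had 6.35, 6.44 and 5.98 at 1% LA, against 6.58, 6.84 and 7.02 in vehicle, with every treated value lower. The difference was -0.56 (SE 0.20, adjusted p = 0.368), and -0.24 with the series matrix (unadjusted p of 0.286), in which the third vehicle array read 6.33. Among the true small HSPs, Hspb8, which works with Bag3 to send aggregates to autophagy, had 7.20, 7.18 and 7.00 at 1% LA and 6.75, 6.84 and 6.80 in vehicle. These did not overlap, and the difference was 0.33 (SE 0.28). Hspb6 differed by 0.42 (SE 0.43), and by -0.011 with the series matrix, so its direction was not stable between the tables.

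**Figure D1:**
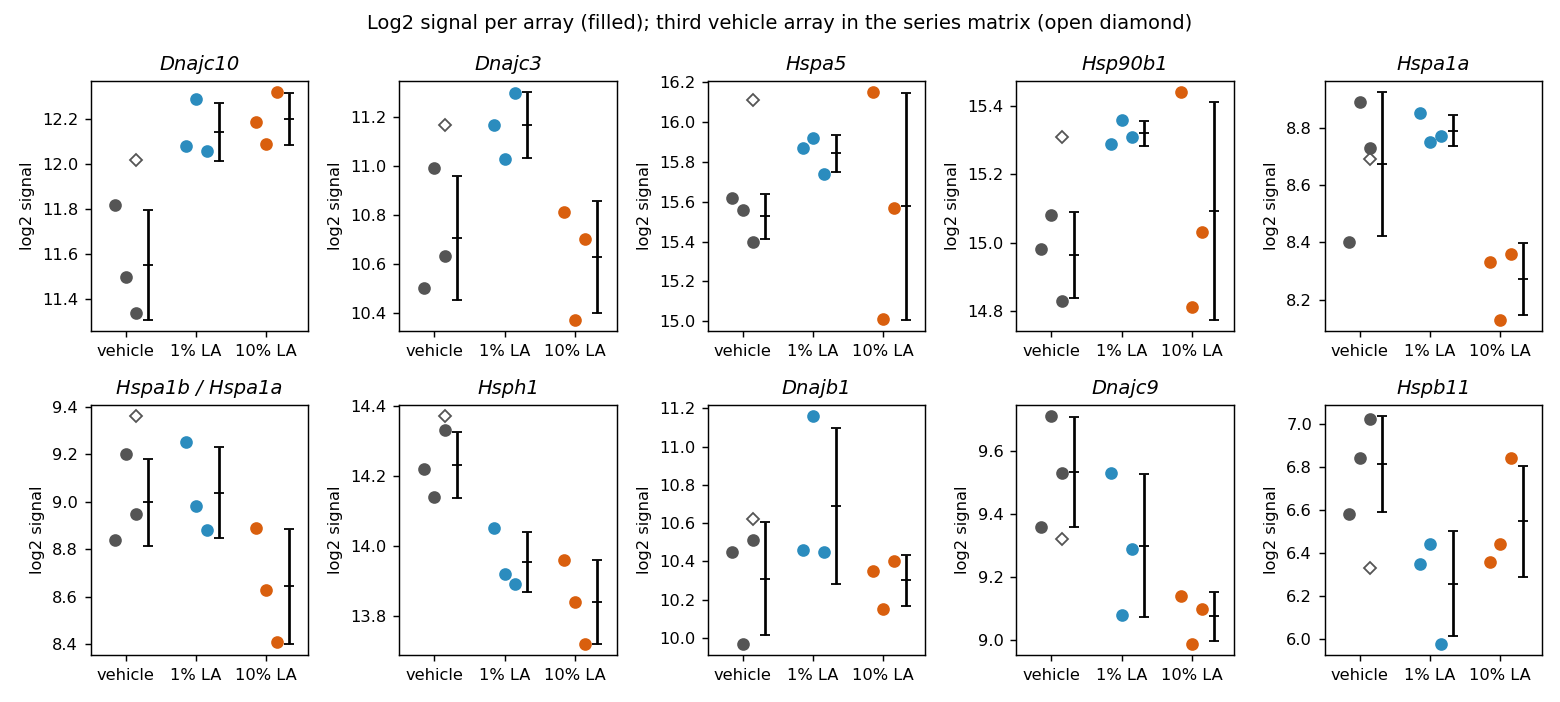
Log2 signal (vertical axis, a scale of its own for each gene) of 10 member clusters in vehicle, 1% LA and 10% LA hippocampus. Filled dots are single arrays, bars the mean ± SD (n = 3), and the open diamond is the third vehicle array as the series matrix gives it. Dnajc10 stood at 12.06 to 12.32 in all 6 LA arrays and at 11.34 to 11.82 in vehicle, Hspa1a was lowest in the 3 arrays at 10% LA, and the diamond lies among the 1% LA values for Dnajc3 and Hsp90b1 and above them, at 16.11, for Hspa5.

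At the higher dose, 10% LA, the question was the same. Dnajc10 was again above vehicle in all 3 mice. In the signal table Hspa1a, Hsph1 and Dnajc9 stood below vehicle in all 3. The ER genes Hspa5, Hsp90b1 and Dnajc3, separate from vehicle at 1% LA in the signal table only, overlapped with it at 10% LA. Most DNAJA, DNAJB, HSP70 and HSP110 members had negative differences, with family medians between -0.31 and -0.20. Again no member passed limma's test.

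At 10% LA 0 of 60 members had an adjusted p under 0.05, as had 0.0% of all clusters, and the smallest adjusted p of a member was 0.312. At an unadjusted p under 0.05, 1 member was higher (Dnajc10), against 6.79% of all clusters, and 3 were lower (Dnajc9, Hspa1a and Hsph1), against 7.12%. The 3 and 3 values did not overlap for 2 higher members (Dnajc10 and Hspa8), against 6.76% of all clusters, and for 7 lower ones (Dnaja4, Dnajb14, Dnajc9, Hspa12a, Hspa1a, Hspa4l and Hsph1), against 7.87%. With a fold over 2 added to the unadjusted p, 0 members were called, against 1.09% of all clusters. Differences were positive in 24 members and negative in 36, and 60.0% of the members were below 0 against 51.9% of all clusters. The median was -0.075 (-0.10 with the series matrix), against -0.017 over all clusters.

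Dnajc10 had 12.19, 12.09 and 12.32 at 10% LA, against 11.82, 11.50 and 11.34 in vehicle. The difference was 0.65 (SE 0.18, adjusted p = 0.312), a ratio of 1.57, and 0.46 with the series matrix. In both tables every 10% LA array was above every vehicle array, in the series matrix by 12.08 against 12.02 at the closest. Without the first vehicle array it was 0.78 with an adjusted p of 0.041, in a fit where 533 of 13323 clusters (4.0%) passed, against 0 with all arrays. The authors' deposited table gave Dnajc10 a fold of 1.59 with a false discovery rate of 0.411 at 10% LA, and 1.46 with 0.4555 at 1% LA.

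Of the inducible HSP70 genes, Hspa1a had 8.33, 8.13 and 8.36 at 10% LA, against 8.40, 8.89 and 8.73 in vehicle. The groups did not overlap, by a narrow margin at the first vehicle array, and the difference was -0.40 (SE 0.17, adjusted p = 0.345). A neighbouring cluster that the file assigns to both Hspa1b and Hspa1a had 8.89, 8.63 and 8.41 at 10% LA and 8.84, 9.20 and 8.95 in vehicle, a difference of -0.35 (SE 0.19) with overlap. The 2 genes are near-identical copies, so which of them each cluster reads is uncertain. With the series matrix the differences were -0.42 and -0.49, and both overlapped with vehicle. For Hspa1a the unadjusted p was over 0.05 in most other settings, such as 0.0927 without the third vehicle array.

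Hsph1 and Dnajc9 were the other lower members. Hsph1 had 13.96, 13.84 and 13.72 at 10% LA, against 14.22, 14.14 and 14.33 in vehicle, a difference of -0.39 (SE 0.16, adjusted p = 0.329) that was -0.40 with the series matrix. All 3 treated mice were below all vehicle mice. Dnajc9, a J-domain protein that also chaperones histones, had 9.14, 8.99 and 9.10 at 10% LA and 9.36, 9.71 and 9.53 in vehicle. Its difference was -0.46 (SE 0.18, adjusted p = 0.319) and -0.43 with the series matrix, again with no overlap. Without vehicle replicate 1, 4 members were higher and 10 lower at an unadjusted p under 0.05, when 12.5% and 12.3% of all clusters were. The 4 were Dnajc10, Dnajc6, Dnajc13 and Hsp90aa1, and the 10 were Dnajb11, Dnajb2, Dnajb5, Dnajc15, Dnajc24, Dnajc9, Hspa1a, Hspa2, Hspa9 and Hsph1.

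The other unfolded protein response targets described at 1% LA were not called at 10% LA. Hspa5 differed by 0.05 (SE 0.25), by -0.24 without the first array at 10% LA and by 0.33 without the second. Hsp90b1 differed by 0.13 (SE 0.19) and Dnajb11 by -0.30 (SE 0.28). Dnajc3 differed by -0.08 (SE 0.19), and by -0.37 with the series matrix. All 4 overlapped with vehicle in both tables. Dnajb14, an ER membrane J-domain protein, had 8.59, 8.92 and 8.95 at 10% LA, against 9.22, 9.20 and 9.06 in vehicle. These did not overlap, and the difference was -0.34 (SE 0.18), and -0.32 with the series matrix.

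By family, the DNAJA proteins, general partners of cytosolic and mitochondrial HSP70, had negative differences in 4 of 4 members at 10% LA, with a median of -0.24. Among the DNAJB proteins 7 of 9 were negative, with a median of -0.26, among HSP70 proteins 6 of 9, with a median of -0.31, and among HSP110 proteins 3 of 3, with a median of -0.20. The series matrix gave medians of -0.14, -0.17, -0.18 and -0.25 in the same order. DNAJC members, the most varied in function, were evenly split in the signal table, 12 and 12, with a median of 0.0. In the series matrix 15 of the 24 were negative, with a median of -0.03. The 3 HSP90 genes had a median of 0.13 and the 3 small HSPs kept 0.23, and both medians were lower in the series matrix, at -0.048 and 0.083. In these families only Hspa1a and Hsph1 and, within DNAJC, Dnajc9 and Dnajc10 had an unadjusted p under 0.05.

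**Figure D2:**
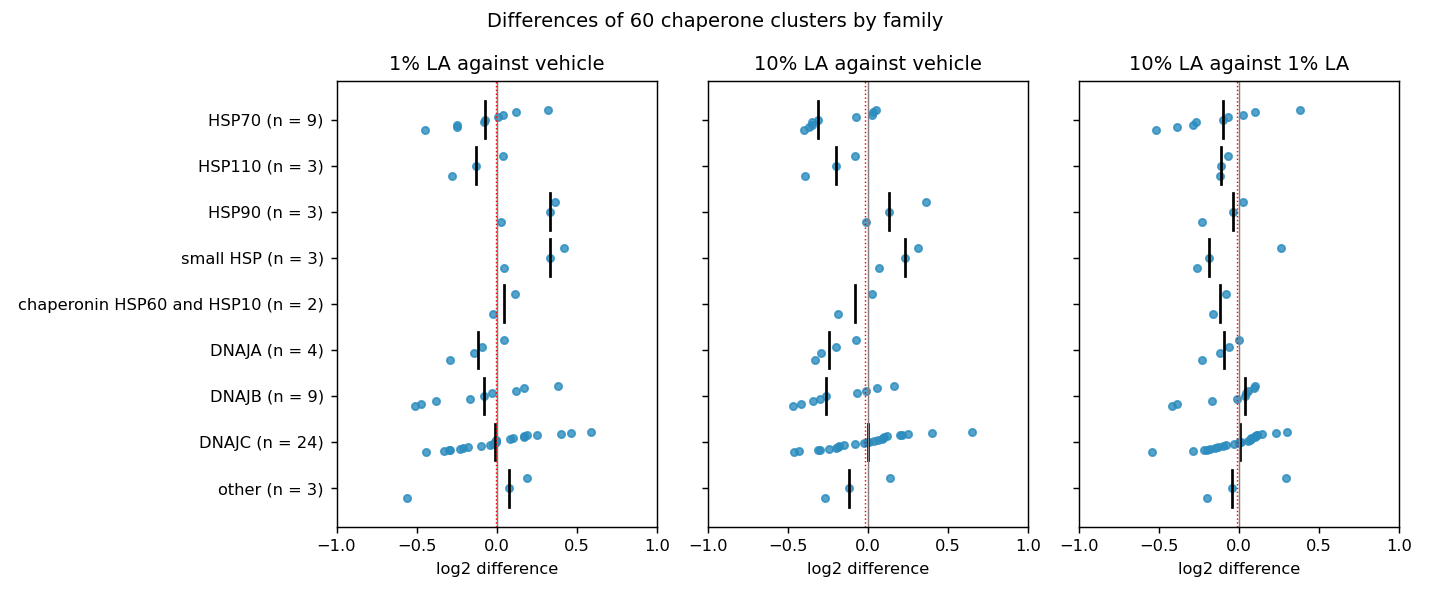
Log2 differences (horizontal axis) of the 60 members kept, by family, for 1% LA against vehicle, 10% LA against vehicle and 10% LA against 1% LA. Each dot is 1 cluster, the black bar the family median, and the red dotted line the median of all 13323 clusters. The 4 DNAJA and 3 HSP110 members lie below 0 at 10% LA against vehicle, and the DNAJC members spread evenly around 0.

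Other members of these families were not called with all arrays. At 10% LA against vehicle, Dnajb2, a neuronal protein that binds ubiquitin chains, differed by -0.47 (SE 0.25) and Dnajb5 by -0.42 (SE 0.22). Dnajb4 differed by -0.26 (SE 0.21), Dnaja2 by -0.33 (SE 0.21) and Dnaja1 by -0.077 (SE 0.16). Dnajb6, a suppressor of polyglutamine aggregation whose promoter holds a 3-unit match, differed by 0.16 (SE 0.17). Hspa2 differed by -0.31 (SE 0.20), Hspa12a by -0.37 (SE 0.19) and Hspa4l by -0.20 (SE 0.15). With the series matrix the differences of Dnajb2, Dnajb5, Dnajb4, Dnaja2 and Dnaja1 were -0.38, -0.27, -0.17, -0.16 and -0.12. Those of Dnajb6, Hspa2, Hspa12a and Hspa4l were 0.077, -0.28, -0.25 and -0.25. In the signal table without the first vehicle array, Dnajb2, Dnajb5, Hspa2 and Hspa9 reached -0.67, -0.57, -0.50 and -0.55. Each then had an unadjusted p under 0.05, when 12.3% of all clusters were lower by that call.

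Hspa8, the constitutive HSP70 that strips clathrin from vesicles, read 19.52 to 19.63 in the 9 arrays. It had 19.60, 19.62 and 19.61 at 10% LA, against 19.58, 19.59 and 19.56 in vehicle, which did not overlap although the difference was only 0.033 (SE 0.15). The highest signal of any cluster was 19.85 to 19.93 per array, so a change of Hspa8 could be compressed by the ceiling of the scale.

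By compartment, the 26 cytosolic and nuclear members kept had 7 positive and 19 negative differences at 10% LA, with a median of -0.078 (-0.12 with the series matrix). The same 26 were split 13 and 13 at 1% LA, with a median of 0.0017. The 13 ER members had 7 positive and 6 negative differences at 10% LA, with a median of 0.027, and 6 and 7 at 1% LA, with a median of -0.013. In the series matrix the ER median had the other sign at each dose. It was -0.1 at 10% LA, with 9 of 13 negative, and 0.1 at 1% LA, with 5 of 13 negative. The cytosolic and nuclear members had 18 of 26 negative at 10% LA in the series matrix. Mostly negative cytosolic members beside evenly split ER members were thus seen at 10% LA only in the signal table. In that table the ER calls at an unadjusted p under 0.05 were Dnajc10, Dnajc3 and Dnajc14, an ER membrane protein, at 1% LA, and Dnajc10 at 10% LA.

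The 8 mitochondrial members had 7 negative differences at 1% LA, with a median of -0.083, and 4 at 10% LA, with the same median. In the series matrix the medians were -0.042 at 1% LA and -0.095 at 10% LA. Of all clusters 50.4% were negative at 1% LA and 51.9% at 10% LA in the signal table. None of the 8 members had an unadjusted p under 0.05 at either dose. Hspa9, the HSP70 motor of protein import into mitochondria, differed by -0.25 (SE 0.21) at 1% LA and -0.35 (SE 0.21) at 10% LA. With the series matrix the Hspa9 differences were -0.061 and -0.16. Hspd1, the HSP60 chaperonin, differed by 0.11 (SE 0.15) at 1% LA and 0.023 (SE 0.15) at 10% LA, and its partner Hspe1 by -0.027 (SE 0.19) at 1% LA and -0.19 (SE 0.19) at 10% LA. These 2 genes of 1 shared promoter differed from vehicle by no more than 1 SE at both doses.

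Of the vesicle and endosome proteins, Dnajc5, the cysteine string protein that keeps synaptic vesicle fusion proteins folded, differed by -0.0067 (SE 0.24) at 1% LA and -0.30 (SE 0.24) at 10% LA. Dnajc6, the neuronal auxilin that recruits Hspa8 to clathrin coats, differed by 0.25 (SE 0.23) at 1% LA and 0.21 (SE 0.23) at 10% LA. With the series matrix, where the third vehicle array read 14.91, the Dnajc6 differences were 0.012 and -0.0034. In the signal table its 3 vehicle arrays spanned 14.22 to 15.01, a wider range than the 14.53 to 15.03 of all 6 LA arrays. Dnajc13, which acts on endosomes, differed by 0.17 (SE 0.23) at 1% LA and 0.40 (SE 0.23) at 10% LA. Dnajc7, a cytosolic bridge between HSP70 and HSP90, differed by 0.19 (SE 0.18) at 1% LA and 0.10 (SE 0.18) at 10% LA. None of these 4 had an unadjusted p under 0.05 at either dose.

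The third comparison set 10% LA against 1% LA, which share no vehicle array and so leave the third vehicle array out of the means. Hspa1a and Dnajc3 were lower at 10% LA in all 3 mice, and so were Dnajb1, Dnajb11 and Hspa12a. Of the 12 heat shock factor targets, 10 had negative differences, where 52.3% of all clusters had. No member had a higher signal at an unadjusted p under 0.05, and none passed limma's test.

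Between the doses 0 of 60 members had an adjusted p under 0.05, as had 0.0% of all clusters, and the smallest adjusted p of a member was 1.0. At an unadjusted p under 0.05, 0 members were higher, against 0.968% of all clusters, and 2 were lower (Hspa1a and Dnajc3), against 1.07%. Values did not overlap for 1 higher member (Dnajc19, a subunit of the mitochondrial import motor), against 2.73% of all clusters, and for 5 lower members (Dnajb1, Dnajb11, Dnajc3, Hspa12a and Hspa1a), against 3.51%. With a fold over 2 added to the unadjusted p, 0 members were called, against 0.0751%. The median was -0.055 (-0.048 with the series matrix) against -0.013 over all clusters, and 56 of 60 members had the same sign in both tables, more than the 48 and 49 at 10% and 1% LA against vehicle.

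Hspa1a had 8.33, 8.13 and 8.36 at 10% LA, against 8.85, 8.75 and 8.77 at 1% LA. The difference was -0.52 (SE 0.17, unadjusted p of 0.0125, adjusted p = 1.0), a ratio of 0.699, and -0.57 with the series matrix. The gap between the groups was wider than the spread within either. Dnajc3 had 10.81, 10.37 and 10.70 at 10% LA, against 11.17, 11.03 and 11.30 at 1% LA, a difference of -0.54 in both tables. Limma's unadjusted p was 0.0163 (SE 0.19) with the signal table and 0.0224 (SE 0.21) with the series matrix. The group means behind the Hspa1a and Dnajc3 calls hold no vehicle array, though the vehicle arrays enter the shared error. With any 1 array left out Hspa1a lay between -0.56 and -0.45 and Dnajc3 between -0.63 and -0.41. Dnajc3 then had an unadjusted p of 0.0578 without 1% LA replicate 3 and 0.0727 without 10% LA replicate 2.

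Of the 7 unfolded protein response targets, 4 had negative and 3 positive differences between the doses, the positive ones being Dnajb9 (0.10), Hspa13 (0.10) and Dnajc10 (0.057). Dnajb11 had 9.12, 9.02 and 8.51 at 10% LA and 9.28, 9.44 and 9.20 at 1% LA, a difference of -0.42 (SE 0.28). Dnajb1 had 10.35, 10.15 and 10.40 at 10% LA and 10.46, 11.16 and 10.45 at 1% LA, a difference of -0.39 (SE 0.23). The cluster of Hspa1b and Hspa1a differed by -0.39 (SE 0.19). Dnajb11 and Dnajb1 did not overlap between the doses, the shared cluster did, and none of the 3 had an unadjusted p under 0.05.

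The ER chaperones were spread at 10% LA. Hspa5 had 16.15, 15.01 and 15.57 at 10% LA, an SD of 0.57 against 0.093 at 1% LA, and differed by -0.27 (SE 0.25). The first array at 10% LA held the highest Hspa5 value, the highest Hsp90b1 value (15.44) and the highest choroid plexus markers of its group. The second held the lowest of all 3. Without the first array 6 members were lower at an unadjusted p under 0.05 (Dnajc3, Hspa1a, the cluster of Hspa1b and Hspa1a, Hspa5, Hspb6 and Hspb8), against 1.93% of all clusters. Without the second array Hspa5 differed by 0.017, so single mice set its direction.

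**Figure D3:**
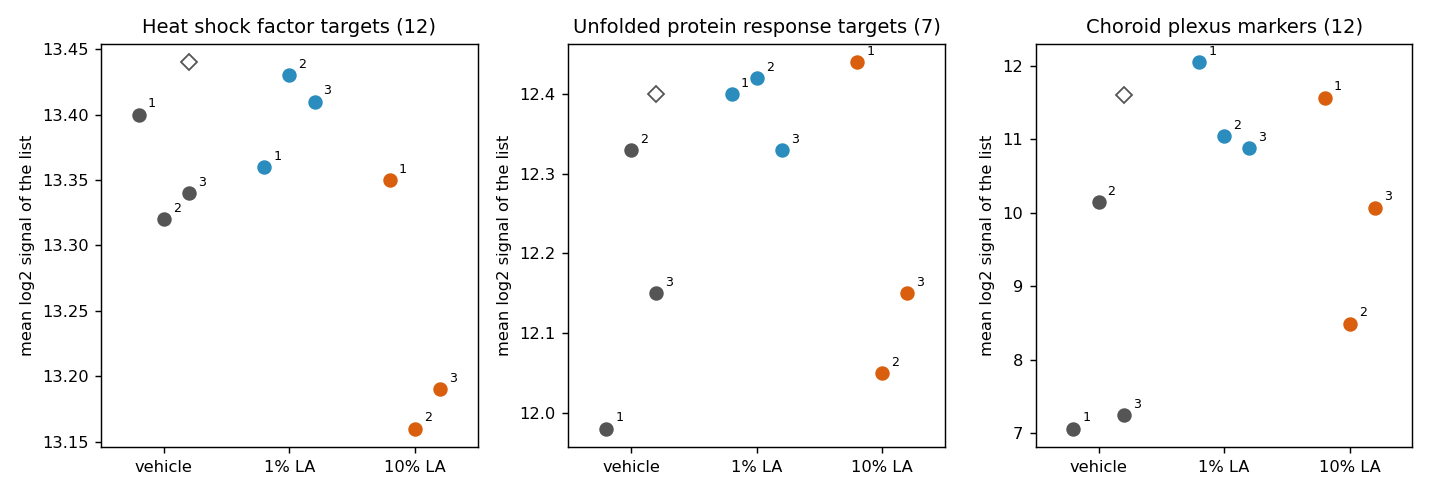
Mean log2 signal (vertical axis) of the 12 heat shock factor targets, the 7 unfolded protein response targets and the 12 choroid plexus markers in each vehicle, 1% LA and 10% LA array. Numbers are replicate numbers of the titles and the open diamond is the third vehicle array in the series matrix. Replicates 2 and 3 at 10% LA are the lowest of the 9 arrays in heat shock factor targets, at 13.16 and 13.19, and the first vehicle array is lowest in both unfolded protein response targets (11.98) and choroid plexus markers (7.06).

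Over the 12 heat shock factor targets the mean signal was 13.35 ± 0.042 in vehicle, 13.40 ± 0.039 at 1% LA and 13.23 ± 0.10 at 10% LA (SD, n = 3 each). The 3 arrays at 10% LA read 13.35, 13.16 and 13.19, and the vehicle arrays 13.40, 13.32 and 13.34, so replicate 1 at 10% LA lay within the vehicle range and the other two below it. At 10% LA against vehicle 9 of 12 targets had negative differences, with a median of -0.13, and against 1% LA 10 of 12, with a median of -0.12. The series matrix gave the same counts and medians of -0.13 and -0.12. Of the targets whose windows hold a 3-unit match, Hsph1 did not overlap with vehicle at either dose, and Hspd1 and Hspe1 overlapped at both. Immediate early genes, markers of recent neuronal activity, were lower beside them, with a median of -1.29 at each dose. At each dose 6 of 7 were lower at an unadjusted p under 0.05. By the same call 7.12% of all clusters were lower at 10% LA and 5.6% at 1% LA. In the series matrix the medians of the immediate early genes were -1.05 at 10% LA and -1.09 at 1% LA. The part of these genes in the chaperone values was not tested.

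**Figure D4:**
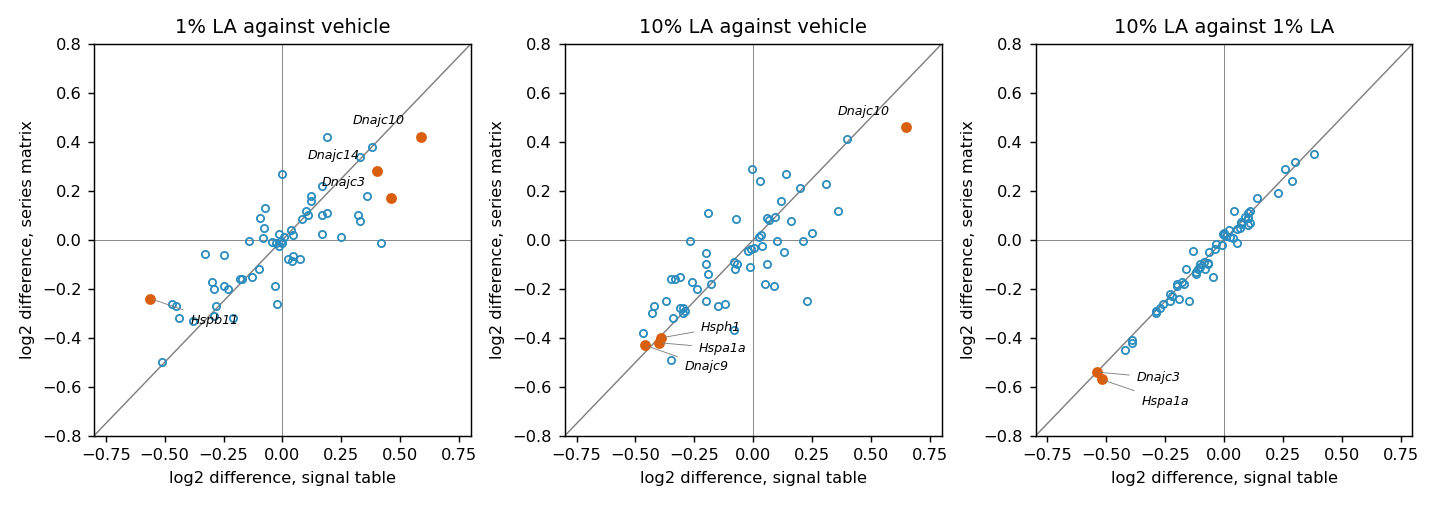
Log2 difference of each of the 60 members with the signal table (horizontal axis) and with the series matrix (vertical axis) in the 3 comparisons. The diagonal marks equal values, and filled orange dots are members with an unadjusted p under 0.05 in the signal table. Between the doses the points follow the diagonal, and against vehicle they scatter around it, with Dnajc3 at 0.46 and 0.17 for 1% LA.

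With the series matrix, 1 member was higher and 3 were lower at an unadjusted p under 0.05 at 10% LA against vehicle (Dnajc10 higher, and Dnajc9, Hsph1 and the cluster of Hspa1b and Hspa1a lower), where 2.41% of all clusters were higher and 3.3% lower. At 1% LA only Dnajc10 was called, as higher, where 2.33% of all clusters were higher and 2.5% lower. Between the doses Dnajc3 and Hspa1a were lower, where 1.29% of all clusters were. Dnajc10 was thus the member called at both doses in both tables. The authors' deposited tables listed 0 of 74 members under a false discovery rate of 0.05, with smallest rates of 0.4555 at 1% LA and 0.411 at 10% LA. They listed 5 members with a p under 0.05 in each table, where 9.5% and 10.7% of all clusters had one, and 0 with a fold over 2 as well.

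The precision of 3 mice per group bounds these differences. Standard errors of the members ranged from 0.15 to 0.43, with a median of 0.20. The 95% intervals lay within 1 log2 unit of 0 for 57 of 60 members at 10% LA against vehicle, 56 of 60 at 1% LA and 57 of 60 between the doses. Hspb6, the member with the largest error, had an interval of -0.70 to 1.16 at 10% LA against vehicle. Differences as small as the median standard error were not detectable here.

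Outside the members, co-chaperones of HSP90 had 13 of 15 negative differences at 10% LA, with a median of -0.18 (-0.12 with the series matrix). Of the 15, 4 were lower at an unadjusted p under 0.05, beside the 7.12% of all clusters. Fkbp4, an immunophilin of steroid receptor complexes, had 10.81, 10.79 and 10.39 at 10% LA, against 11.14, 11.38 and 11.20 in vehicle, a difference of -0.58 (SE 0.19, adjusted p = 0.312) and -0.59 with the series matrix. Ahsa1, which speeds the ATP use of HSP90, differed by -0.55 (SE 0.25), also with no overlap, and by -0.41 with the series matrix. At 1% LA 8 of 15 were negative and 2 were lower at an unadjusted p under 0.05, beside 5.6% of all clusters. These were Unc45a, a myosin chaperone (-0.59, SE 0.20), and Cdc37l1 (-0.51, SE 0.19). With the series matrix they differed by -0.48 and -0.27. Stip1, which links HSP70 to HSP90, differed by -0.023 (SE 0.28) at 10% LA.

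Of 14 subunits of the TRiC chaperonin and prefoldin, which fold actin and tubulin, 3 were lower at an unadjusted p under 0.05 at each dose, beside 7.12% of all clusters at 10% LA and 5.6% at 1% LA, and none was higher. Pfdn6 differed by -0.92 (SE 0.26) at 10% LA and -0.90 (SE 0.26) at 1% LA, and Cct6a by -0.57 (SE 0.19) at 10% LA and -0.64 (SE 0.19) at 1% LA. In the series matrix these were -0.50 and -0.46 for Pfdn6, and -0.14 and -0.25 for Cct6a, again at 10% and 1% LA. Of 10 partners of HSP70, 1 was lower at 10% LA and 0 at 1% LA. Hyou1, the ER relative of HSP110, differed by -0.17 (SE 0.19) at 10% LA and 0.11 (SE 0.19) at 1% LA. Hsf1, the main heat shock factor, differed by -0.44 (SE 0.20, adjusted p = 0.351) at 10% LA, with no overlap, and by -0.16 (SE 0.20) at 1% LA. Hsf4 differed by -0.56 (SE 0.25) at 1% LA, and by -0.19 with the series matrix. Among 8 chaperones with other names 0 were called at either dose, Cryab, a small HSP of glia, with 0.49 (SE 0.35) at 10% LA and -0.15 in the series matrix. Bag3 did not pass the filter.

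Hsp90aa1 varied between mice within each group, and this was set beside the cold-inducible RNA-binding protein genes Cirbp and Rbm3, which cells transcribe more when cooled. This pair of measures was chosen after the values were seen. Hsp90aa1 had 17.35, 16.54 and 16.39 in vehicle, 16.85, 16.93 and 17.50 at 1% LA, and 17.41, 16.65 and 17.29 at 10% LA. The mean of Cirbp and Rbm3 was 11.31, 12.57 and 12.87 in vehicle, 12.39, 12.22 and 11.92 at 1% LA, and 11.77, 12.38 and 12.16 at 10% LA. Mice high in the first tended to be low in the second, in every group.

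Over the 9 mice, Pearson's r was -0.86 (exact two-sided permutation p = 0.00143, adjusted p = 0.0172 over the 12 heat shock factor targets examined). Spearman's rho was -0.92 (exact permutation p = 0.00131, adjusted p = 0.0157). Without the 2 mice farthest from the median of the cold-inducible mean r was -0.93, and with group means removed -0.90. With the series matrix, where the third vehicle mouse moved, r was -0.71 (exact permutation p = 0.0362, adjusted p = 0.217) and rho -0.80 (exact permutation p = 0.0138, adjusted p = 0.083). These p-values do not cover the choice of Cirbp and Rbm3, made after the values were seen, so the relation is given as a description. Hsp90ab1, the constitutive cytosolic HSP90, had r of -0.70 with the signal table (adjusted exact permutation p = 0.203) and -0.76 in the series matrix (adjusted exact permutation p = 0.198). For Hspa1a r was 0.41 (adjusted p = 0.545). The labels give no batch or scan order for the arrays, so none could be tested.

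**Figure D5:**
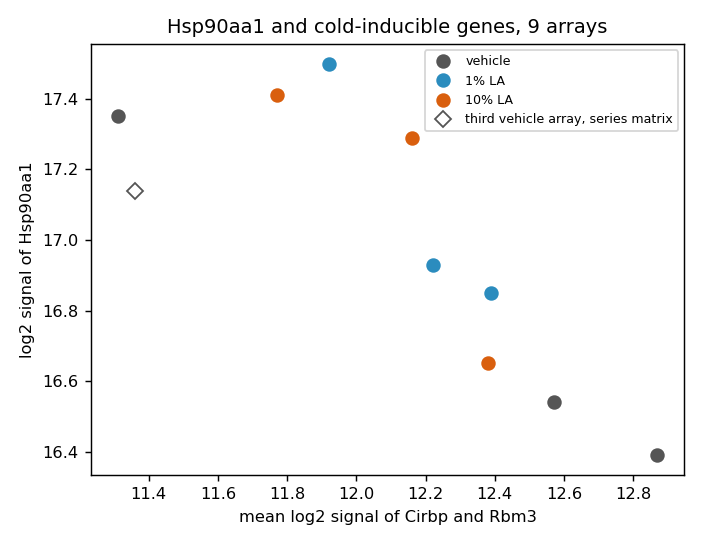
Hsp90aa1 log2 signal (vertical axis) against the mean log2 signal of Cirbp and Rbm3 (horizontal axis) in the 9 arrays, with the third vehicle array of the series matrix as an open diamond. The points fall from upper left to lower right, with vehicle mice at both ends, at 11.31 and 17.35 and at 12.87 and 16.39.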

How the data were processed

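RNA of 9 hippocampi was measured on Clariom S arrays, 3 mice per group, with labelled material from 100 ng of RNA per the labels. The deposited signal table and series matrix hold log2 values, normalized by the authors with RMA in Transcriptome Analysis Console 4, per the submitters' processing notes, and with its signal space transformation form, per the series' design text. The deposited comparison tables hold the authors' signed linear folds, p-values and false discovery rates. The authors' group averages are not plain means of the arrays, so their folds can differ from the differences given here. No genome build is named in those notes.

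From these, 1 limma 3.58.1 fit (R 4.3.3) of all 9 arrays gave log2 differences, standard errors and 95% intervals, with a group mean each and no block, for 13323 of 22206 clusters whose mean lay above the 40th percentile (5.98). In each comparison the Benjamini-Hochberg adjustment ran over these 13323 clusters, with a threshold of 0.05. Calls at an unadjusted p under 0.05 are given beside the share of all clusters with the same call. The 3 comparisons share arrays. The fit was tested on simulated data. All alternatives are in the closing section.

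Members, gene lists and naming rule were chosen with earlier results of these data known. The rule named members with an unadjusted p under 0.05 and no overlap between groups, and 30 anchor members whatever their values. Other genes were named likewise, up to 3 per list. Members that are counted by a call outside this rule are named for that reason. Clusters with several symbols are that of Dnaja1, which the file also assigns to Mir207, and that of Hspa1b and Hspa1a. Replicate numbers of the titles did not pair the samples: same-numbered arrays had correlations of their deviations from group means between -0.169 and 0.168. Protein sequences were not used here.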

Additional observations from a re-analysis of the deposited data

Results flagged for a closer look

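Between the doses, Hspa1a (log2 difference of -0.52 at 10% LA against 1% LA) and Dnajb11 (-0.42) are given here because every 1% LA array lay above the vehicle mean and every 10% LA array below it. The limma test of the difference between the doses gave both an adjusted p of 1.0. For Hspa1a the difference against vehicle was -0.40 at 10% LA and 0.12 at 1% LA, and without the first vehicle array the 1% LA value was -0.02. For Dnajb11 these were -0.30 and 0.12, and without the first vehicle array -0.66 and -0.23, so that neither dose lay above vehicle.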

How the results depend on the processing

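The alternatives were no filter, a filter at the median, series matrix values, the replicate block, only the 6 arrays compared, a trended and robust prior, quantile normalization, median centring, and each array left out. At 10% LA against vehicle 3 members were lower and 1 higher at an unadjusted p under 0.05, and 0 passed after adjustment. The lower count was 1 with only the 6 arrays compared and 1 to 10 with an array left out (10 without vehicle replicate 1, and 1 without vehicle replicate 2 or 3 or 10% LA replicate 3). The higher count was 1 to 4, the passing count 0 to 1, and the median of -0.075 was -0.14 to -0.045, with 4, 1 and -0.14 without vehicle replicate 1 and -0.13 without 10% LA replicate 1. At 1% LA the counts of 3 higher and 1 lower were 1 and 0 with series matrix values. The lower count was 2 with no filter, 3 with quantile normalization and 2 with median centring. With an array left out it was 0 to 8 (8 without vehicle replicate 1, when 10.7% of all clusters were lower and 12.6% higher, 0 without vehicle replicate 3, 2 without 1% LA replicate 1, 3 without 10% LA replicate 2), and the higher count 1 to 4 (1 without vehicle replicate 3 or 1% LA replicate 1). Between the doses the lower count of 2 was 1 to 6 (6 without 10% LA replicate 1, 1 without 10% LA replicate 2 or 1% LA replicate 3). The replicate block gave 1 higher and 2 lower at 10% LA, 2 and 1 at 1% LA and 0 and 2 between the doses, with 0 passing. The cause of these shifts was not tested. By the submitters' criteria 0 members were called in each comparison. Among single named members, 0 called values changed sign. Counted once per member and alternative, 19 calls at 10% LA against vehicle, 10 at 1% LA and 2 between the doses were lost. In the same order 12, 9 and 4 calls were gained, and 4, 2 and 2 uncalled values changed sign and moved by more than 1 SE. Hspa1a at 10% LA against vehicle was at an unadjusted p over 0.05 in most alternatives. The Dnajc10 differences ranged from 0.46 to 0.78 at 10% LA and from 0.42 to 0.72 at 1% LA. With 3 arrays per group, differences near the median standard error of 0.21 could not be resolved.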
